A study of Homo sapiens with 4 samples.

Results

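The core and linker histone genes were examined in KM-H2, an established human Hodgkin lymphoma cell line, on 4 single-colour oligonucleotide arrays. The first group was 2 arrays of KM-H2 cells transduced with a lentiviral pGIPZ vector carrying the hairpin sh.FLJ27352, which is aimed at exon 2 of BX648577 within the CIITA-BX648577 fusion transcript (here called knockdown). The second group was 2 arrays of KM-H2 cells transduced with a non-silencing control (here called control). All 4 samples thus carried a transduction, and the series holds 1 cell line and 1 hairpin. The labels do not say whether the replicates were separate cultures, so p-values measure only the spread between these arrays, which may be technical. The members were the genes whose platform symbol begins with H1-, H2A, H2B, H3-, H3C, H4C or H4-, read by a probe set assigned to that gene alone, with the brightest probe set taken where a gene had several. Of the 19775 named genes on the array, 54 qualified. Among the names that fit the prefixes, 4 pseudogenes and 1 antisense RNA were left out.

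Histones package DNA into nucleosomes, in which pairs of H2A, H2B, H3 and H4 proteins form the core and the linker histone H1 binds the DNA between cores. The replication-dependent genes mostly lie in clusters, are typically transcribed in S phase to supply new chromatin, and typically give mRNAs that end in a stem-loop in place of a poly(A) tail. Variant genes are mostly single genes expressed through the cell cycle, with polyadenylated mRNAs, and their proteins replace the standard ones at particular places in chromatin. Standard cRNA labelling for these arrays is primed on poly(A) tails, so stem-loop mRNAs are known to be read poorly by it. How far this set the levels below was not tested. Members of a family are also close in coding sequence, and 8 of the 54 were read by probe sets of the _x_at kind, whose probes can match related transcripts, so the level of a single cluster gene is uncertain.

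By this division 44 members were replication-dependent, 40 of them on chromosome 6, 3 on chromosome 1 and 1 on chromosome 21. The other 10 were variants, spread over chromosomes 1, 3, 4, 7, 11, 12 and X. The classes were set by gene name, and all 44 are called cluster genes below, H2BC12L on chromosome 21 included. Whether their mRNAs ended in a stem-loop in these cells was not tested. What the promoters held was not used to choose the genes. In the 250 bases before the start of transcription (RefSeq, GRCh38.p14), read on both strands, the histone octamer ATTTGCAT was found in 16 of 41 replication-dependent members that had a promoter entry and in 0 of 10 variants, against 1.66% of the 27305 promoters of the whole table. All 16 were H2A or H2B genes, 6 of 8 and 10 of 13 in those families, and the cluster genes for H1, H3 and H4 had 0, as the variants did. The CCAAT box was found in 36 of 41 replication-dependent members and 9 of 10 variants, against 33.0% of all promoters, and TATAAA in 28 of 41 and 4 of 10, against 11.1%. By family, the cluster genes for H1, H2A, H2B and H3 all had the CCAAT box, but those for H4 had it in only 2 of 7. A match is only a description of letters in this window. The 150 bases before the start are shown for H2BC5, H2AC6 and H3C2, whose differences were largest against their error, for the bright cluster gene H2BC12, and for the variants H2AX and H2AZ1, to compare the classes. Capitals mark the CCAAT box, the TATA box TATAAA and the octamer ATTTGCAT on either strand, and each stretch runs 5′ to 3′ along the strand of its gene. The stretches lie at chr6:26157971-26158120 (plus strand) for H2BC5, chr6:26124022-26124171 (plus strand) for H2AC6, chr6:27146859-27147008 (minus strand) for H2BC12, chr6:26032100-26032249 (minus strand) for H3C2, chr11:119095466-119095615 (minus strand) for H2AX and chr4:99950276-99950425 (minus strand) for H2AZ1.
H2BC5: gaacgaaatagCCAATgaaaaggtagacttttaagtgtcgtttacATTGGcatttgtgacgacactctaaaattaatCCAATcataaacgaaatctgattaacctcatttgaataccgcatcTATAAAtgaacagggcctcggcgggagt
H2AC6: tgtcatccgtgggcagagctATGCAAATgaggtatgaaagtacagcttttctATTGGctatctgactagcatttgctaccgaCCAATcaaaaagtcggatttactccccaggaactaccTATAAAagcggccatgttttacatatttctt
H2BC12: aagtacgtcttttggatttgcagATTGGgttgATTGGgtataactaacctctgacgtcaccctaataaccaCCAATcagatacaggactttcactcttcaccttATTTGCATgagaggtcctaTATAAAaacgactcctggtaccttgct
H3C2: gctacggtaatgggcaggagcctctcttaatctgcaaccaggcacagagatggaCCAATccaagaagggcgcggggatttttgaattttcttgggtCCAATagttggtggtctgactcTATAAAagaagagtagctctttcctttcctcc
H2AX: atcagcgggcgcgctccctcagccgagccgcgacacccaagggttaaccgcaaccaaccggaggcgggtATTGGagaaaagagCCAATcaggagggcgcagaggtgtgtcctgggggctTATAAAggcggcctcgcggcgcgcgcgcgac
H2AZ1: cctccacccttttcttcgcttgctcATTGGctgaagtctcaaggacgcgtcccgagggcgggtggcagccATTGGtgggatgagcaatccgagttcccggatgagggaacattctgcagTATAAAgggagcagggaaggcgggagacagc

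The arrays had mean intensities of 53.3 to 54.6, and log2 values over all probe sets correlated at r = 0.979 to 0.987 between arrays, across probe sets and not across independent samples. The probe set of PIERCE2, the gene known also as FLJ27352, read 621 and 590 on knockdown arrays, against 880 and 947 on control arrays. Its difference was -0.58 (SE 0.10), with an adjusted p of 0.252 by the common-prior fit, which did not call it, and 9.74e-05 by the intensity-trend fit, both defined with the histone results. CIITA, the 5′ partner in the fusion transcript, read 60.6 and 53.6 on knockdown arrays and 59.6 and 65.1 on control arrays. All 7 markers of the Hodgkin line were above the filter, with a summed level of 1203 and 1158 on knockdown arrays and 1249 and 1248 on control arrays. Of these FUT4 (CD15) was higher in knockdown (0.39) and FSCN1 lower (-0.32), both past the intensity-trend fit (adjusted p = 0.0406 and 0.0162) but not the common-prior fit, while TNFRSF8 (CD30) overlapped. The B cell markers summed to 53.3 and 48.0 in knockdown and 54.6 and 52.6 in control. Of 4 T cell markers CD3D alone was above the filter, at 253 and 225 in knockdown and 194 and 183 in control (0.32, adjusted p = 0.0499 by the intensity-trend fit), and CD3E, CD3G and CD8A lay between 1 and 14.01. The sum of the 4 was 274 and 235 in knockdown and 202 and 191 in control. The 3 stroma markers summed to 88.5 and 86.3 in knockdown and 114 and 123 in control, with COL1A2 past the intensity-trend fit (-0.47, adjusted p = 0.0405), and the 3 myeloid markers to 107 and 111 in knockdown and 108 and 111 in control. The part of these markers in the results was not tested.

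No histone gene with its own probe set was called higher or lower in knockdown, and probe sets shared by several genes are described separately below. Every difference is the knockdown mean minus the control mean of log2(intensity + 16), a scale on which changes of dim probe sets come out too small. They were fitted in limma over all 12922 genes whose mean log2 value reached the median of all probe sets. Of the 54 members 32 passed that filter, 26 replication-dependent genes and 6 variants. With 1 prior variance for all genes (the common-prior fit), 0 of 32 had an adjusted p below 0.05, against 0.0155% of all genes tested, and 3 of 32 had an unadjusted p below 0.05, against 14.1%. With a prior variance that follows mean intensity (the intensity-trend fit), again 0 of 32 passed, against 2.99% of all genes tested (1.59% higher and 1.4% lower in knockdown), and 5 of 32 had an unadjusted p below 0.05, against 17.1%. The lowest adjusted p among members was 0.255 in the common-prior fit, for H3C2, and 0.124 in the intensity-trend fit, for H2BC5. The 2 groups did not overlap for 11 of the 32, which is 34.4%, against 47.3% of all genes tested. Knockdown was the higher group in 4 of these and the lower in 7, against 22.7% and 24.5% of all genes tested.

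The unadjusted 95% intervals of the 32 differences from the common-prior fit had half-widths of 0.23 to 0.45 on the log2 scale, and none of the 32 intervals reached a doubling or a halving of intensity + 16. This says little of the dim genes, since 22 of the 32 had a mean intensity under 32. A probe set with a control intensity below 16 cannot show a halving on this scale. All but 3 of the 32 intervals held 0, and the 3 belonged to H3C2, H2BC5 and H2AC6.

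**Figure D1:**
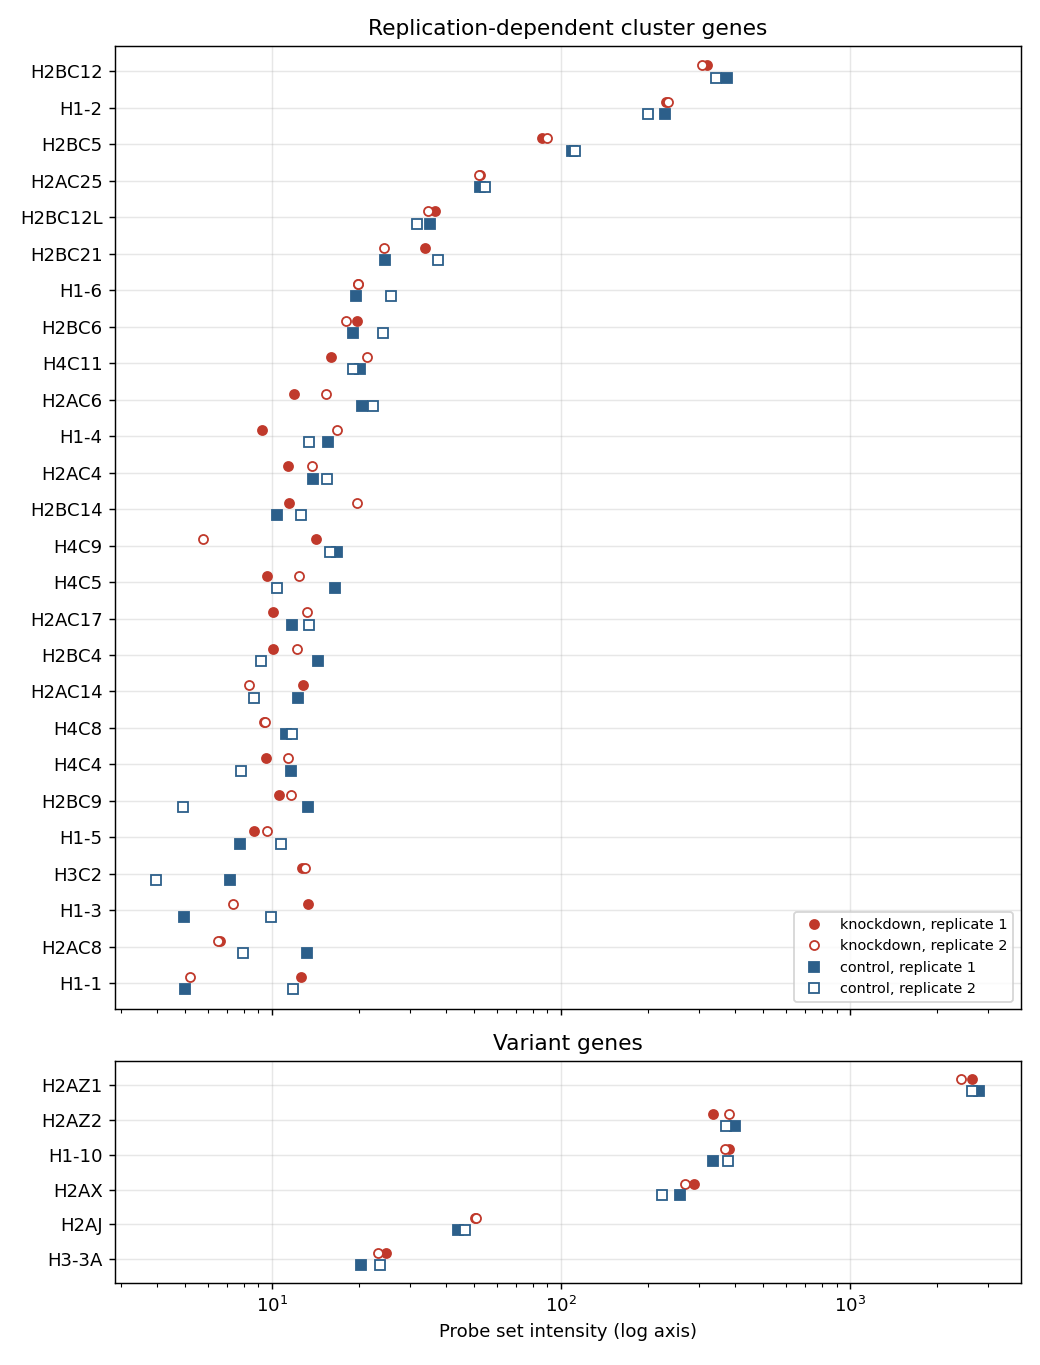
Probe set intensity on a log axis for the 32 histone genes above the filter on dim probe sets, with replication-dependent genes in the upper panel and variants in the lower. Red circles are the 2 knockdown arrays and blue squares the 2 control arrays, filled for replicate 1 and open for replicate 2; in most rows the colours interleave, while H2BC5 and H2AC6 lie lower and H3C2 higher in knockdown.

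The linker histones of the cluster showed no shared direction, with 3 of 6 genes above 0 and 3 below and a median difference of 0.01. H1-2, which encodes a widely expressed H1 subtype, read 231 and 236 on knockdown arrays, against 229 and 201 on control arrays. The knockdown arrays lay just above both controls, and the difference of 0.11 was about the size of its error (SE 0.11, adjusted p = 0.664). H1-3 read 13.3 and 7.36 on knockdown arrays and 4.98 and 9.92 on control arrays, so its groups overlapped (0.17, adjusted p = 0.656). The testis subtype gene H1-6 read 19.9 on both knockdown arrays and 19.6 and 25.9 on control arrays (-0.11, adjusted p = 0.710), and its other probe set read 6.39 and 6.90 in knockdown and 14.2 and 9.59 in control (-0.30).

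Among the cluster genes for H2A, 6 of 8 lay below 0, and 5 of the 6 above the filter, where the median was -0.08. H2AC6 read 11.97 and 15.4 on knockdown arrays, against 20.5 and 22.4 on control arrays, without overlap. The group means were 13.7 ± 2.42 and 21.4 ± 1.32 (SD, n = 2 arrays each), a difference of -0.34 (SE 0.11, 95% interval -0.60 to -0.08). This did not pass the common-prior fit (adjusted p = 0.280) or the intensity-trend fit (0.266), and all 4 values are dim. H2AC8 read 6.63 and 6.52 in knockdown and 13.3 and 7.93 in control, a difference of -0.23 carried mostly by control replicate 1 (adjusted p = 0.456). The other 3 values lay below the filter's intensity of 8.26, so H2AC8 passed the filter through that 1 array. H2AC25, of the small cluster on chromosome 1, read 52.6 and 52.2 in knockdown and 52.4 and 54.8 in control (-0.02, 95% interval -0.26 to 0.21). A dimmer probe set of H2AC25 differed in direction, at 12.4 and 13.6 in knockdown and 10.7 and 5.68 in control (0.27).

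For H2B, 8 of 14 cluster genes lay below 0 and 6 above, with a median of -0.03. H2BC12 read 320 and 307 on knockdown arrays, against 377 and 345 on control arrays. The groups did not overlap, at means of 314 ± 9.51 and 361 ± 22.8, and the difference was -0.19 (SE 0.10, adjusted p = 0.455, and 0.190 in the intensity-trend fit). H2BC5 read 85.9 and 89.7 in knockdown, against 109 and 112 in control, a gap wider than the spread within either group. The means were 87.8 ± 2.74 and 111 ± 1.58, and the difference was -0.29 (SE 0.10, 95% interval -0.52 to -0.05, adjusted p = 0.294). A second probe set of H2BC5, also of the _x_at kind, did not show this gap, at 37.5 and 40.4 in knockdown and 39.6 and 37.3 in control (0.01).

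The remaining H2B genes named by brightness or by t overlapped between groups. H2BC12L, close to H2BC12 in sequence, read 36.9 and 34.9 in knockdown and 35.2 and 31.8 in control (0.07). H2BC21 read 33.9 and 24.4 in knockdown and 24.7 and 37.6 in control, so that replicates of a group differed more than the groups did (-0.06). H2BC6, H2BC14 and H2BC9 gave differences of -0.11, 0.19 and 0.13, and adjusted p-values between 0.585 and 0.755.

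The one-gene probe sets of the H3 and H4 cluster genes were dim. H3C2 was the only H3 cluster gene of 8 above the filter and read 12.8 and 13.1 on knockdown arrays, against 7.20 and 3.99 on control arrays. Its means were 12.9 ± 0.23 and 5.59 ± 2.27, a difference of 0.43 (SE 0.11, 95% interval 0.16 to 0.70, adjusted p = 0.255, and 0.219 in the intensity-trend fit), the largest of the 32 in either direction. Both control values lay below the filter's intensity of 8.26, so H3C2 was tested through its knockdown values. Over the alternatives run its difference kept its sign but ranged from 0.14 to 1.12. Of 8 H4 cluster genes 5 lay below 0. H4C9 read 14.3 and 5.79 in knockdown, which is a wide gap between replicates, and 16.8 and 15.9 in control (-0.33, SE 0.16, adjusted p = 0.407), without overlap. H4C8 read 9.44 and 9.51 in knockdown and 11.2 and 11.8 in control (-0.11, adjusted p = 0.643).

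**Figure D2:**
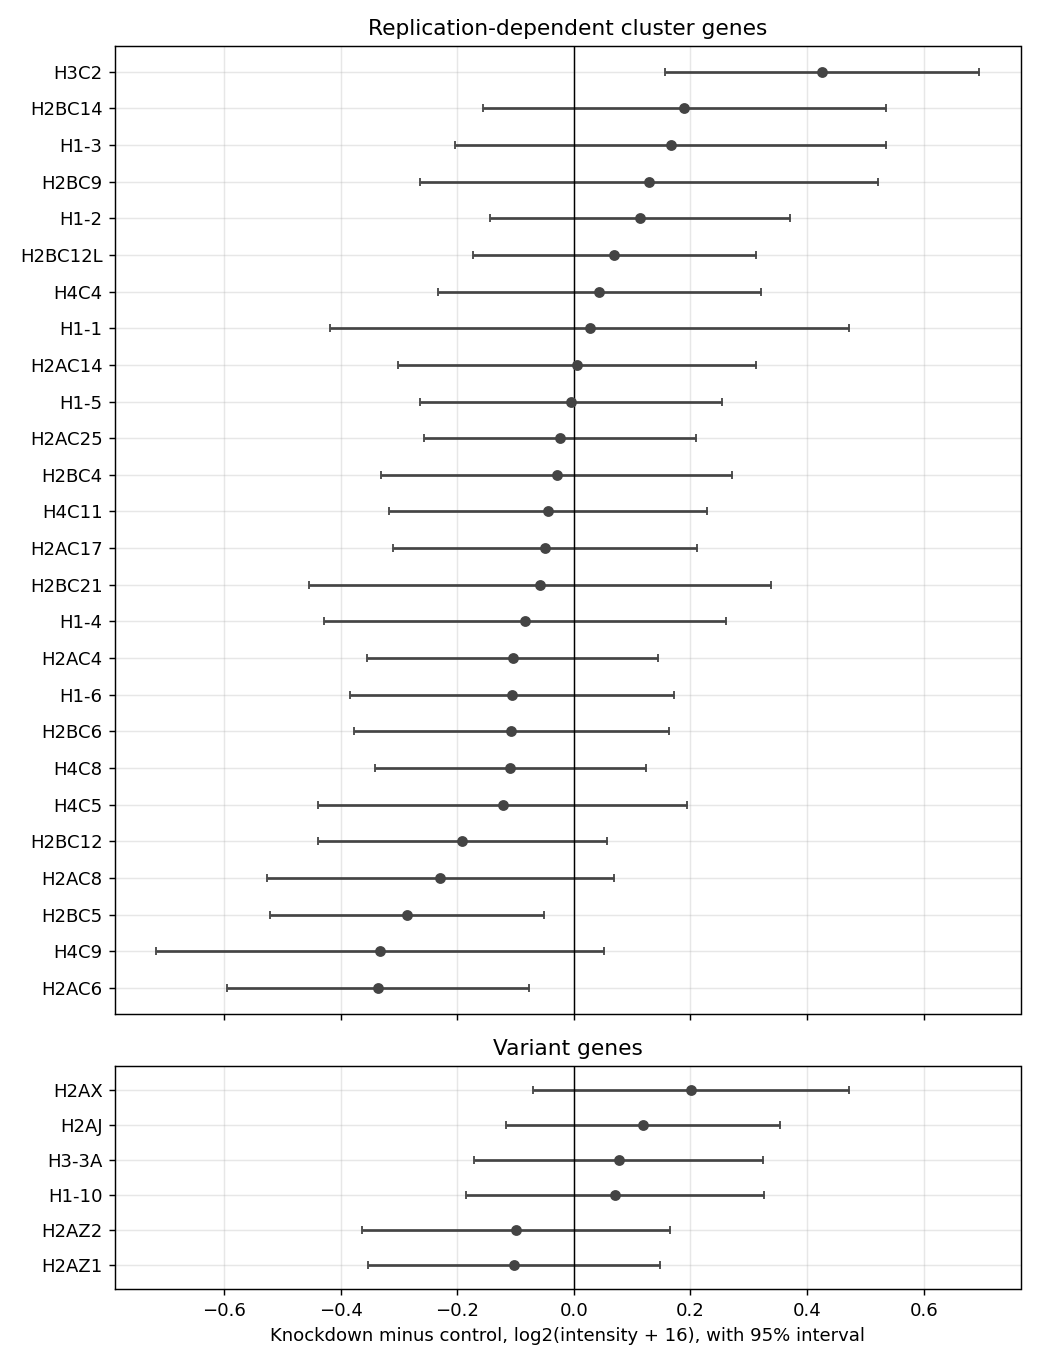
Knockdown minus control difference on the log2(intensity + 16) scale with its 95% interval from the common-prior fit, for the 26 replication-dependent genes in the upper panel and the 6 variants in the lower. The intervals of H3C2, above 0, and of H2BC5 and H2AC6, below 0, are the 3 that do not cross the line at 0, and none of the 32 genes passed after adjustment over all genes tested.

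The 6 variants above the filter split 4 above 0 and 2 below. H2AZ1, which encodes the H2A.Z protein found at gene starts, read 2649 and 2431 on knockdown arrays, against 2807 and 2648 on control arrays. Knockdown replicate 1 and control replicate 2 coincided almost exactly, so the groups overlapped, at means of 2540 ± 155 and 2728 ± 113 and a difference of -0.10 (95% interval -0.35 to 0.15, adjusted p = 0.687). Its other probe set read 1698 and 1655 in knockdown and 1922 and 1722 in control (-0.12). H2AZ2, the second gene for H2A.Z, read 337 and 382 in knockdown and 399 and 372 in control (-0.10, adjusted p = 0.717). Dimmer probe sets of H2AZ2 read 109 and 99.05 in knockdown and 124 and 119 in control (-0.20), then 76.8 and 80.4 in knockdown and 100.51 and 82.3 in control (-0.18). The dimmest read 37.4 and 51.1 in knockdown and 40.9 and 42.1 in control (0.06), so 3 of 4 pointed down and 1 up.

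H2AX, whose protein is phosphorylated around DNA breaks, read 289 and 270 on knockdown arrays, against 259 and 224 on control arrays. The arrays did not overlap, and the difference of 0.20 (SE 0.11, 95% interval -0.07 to 0.47) did not pass either fit (adjusted p = 0.467 and 0.224). It was 0.10 without control replicate 2 and 0.30 without control replicate 1. The other H2AX probe sets were dim and gave -0.16, -0.02 and -0.10. H2AJ, a mammalian H2A variant gene, read 50.7 and 50.8 in knockdown and 44.1 and 46.8 in control (0.12, adjusted p = 0.617), while its other probe sets gave 0.28, -0.08 and -0.06. H1-10, the gene of the linker variant H1.X, read 382 and 370 in knockdown and 337 and 379 in control (0.07, adjusted p = 0.801), with overlap. H3-3A, of the replacement histone placed outside replication, had a dim one-gene probe set that read 24.9 and 23.4 in knockdown and 20.4 and 23.8 in control (0.08, adjusted p = 0.771).

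The other 22 members lay below the filter and were not tested, with values from 1 to 11.8 on any array. They were 18 cluster genes and 4 variants, among them the germ cell linker histones H1-7 and H1-8, with H2AP and H2BW2. Among these dim genes, the groups did not overlap for 3 with knockdown above (H3C11, H2BC13 and H2BC15) and 3 with knockdown below (H3C6, H4C13 and H2BW2). These 6 of 22 are 27.3%, against 43.2% of all named genes (18.9% above and 24.4% below). The share of all named genes includes the genes that passed the filter, at 47.3% (22.7% above and 24.5% below). It is thus not a share of dim genes alone, and gives no like measure for these 22. H2BC15 read 6.73 and 5.58 in knockdown and 1.14 and 1.00 in control, the second control value being one of many deposited as exactly 1. These names were taken after their values were seen.

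Over all 44 replication-dependent members the median difference was -0.03, with 19 above 0 and 25 below. The 10 variants had a median of -0.06, with 4 above 0 and 6 below, and all named genes had -0.02, with 8781 above and 10980 below. Among members above the filter alone, the medians were -0.05 for the 26 cluster genes, 0.07 for the 6 variants and -0.01 for all genes tested, so the order of the classes turned with the filter. The difference between the 2 class medians over all members was 0.03. For each array, the class median deviation of cluster genes minus that of variants was also taken. Over all members it was -0.07 and -0.03 on knockdown arrays and -0.02 and 0.01 on control arrays. The pooled SD of these values between arrays of a group was 0.03. They lay lower in knockdown, while the difference of the class medians was above 0. Above the filter the deviation was -0.10 and -0.03 on knockdown arrays and 0.08 and 0.03 on control arrays, without overlap, with a pooled SD of 0.04. That contrast rests on 6 variants and is a description with no test. Groups did not overlap for 14 of 44 cluster genes (31.8%) and 3 of 10 variants (30.0%), against 43.2% of all named genes.

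**Figure D3:**
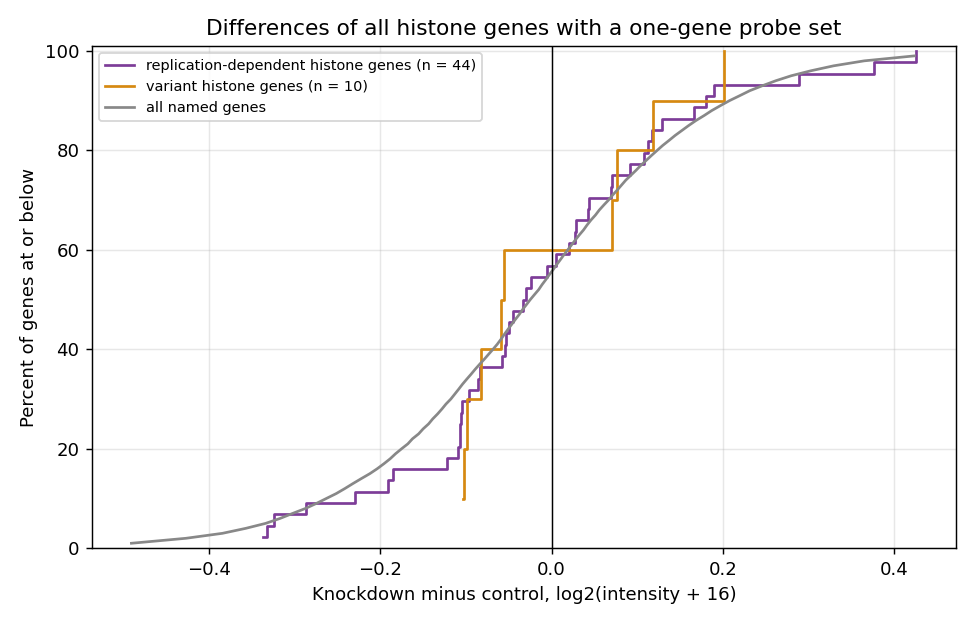
Cumulative percent of genes at or below a given knockdown minus control difference, on the log2(intensity + 16) scale, for the 44 replication-dependent members (purple), the 10 variants (orange) and all named genes (grey). The 3 curves cross near 0, with medians of -0.03, -0.06 and -0.02.

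Probe sets assigned to several genes fall outside the choice of members but read histone genes that had none of their own. Of 92 coding histone genes with these prefixes in the RefSeq annotation, 54 had their own probe set, 23 were read by a shared one alone and 15 were not analysed here. There were 29 shared probe sets, and 20 lay above the filter. Fitted over all 27307 probe sets above the filter, an alternative chosen after the data were seen, 0 of these 20 passed the common-prior fit, against 0.00732% of all probe sets. In it 3 of the 20 had an unadjusted p below 0.05, where the common-prior fit over genes gave 14.1% of all genes tested. In the intensity-trend fit 4 of 20 passed, against 2.16%. Several of the 20 read the same transcripts, so they are not separate genes.

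The clearest of these was a probe set assigned to 14 H4 genes, which read 295 and 344 on knockdown arrays, against 231 and 226 on control arrays. Its means were 319 ± 34.7 and 228 ± 3.44, a difference of 0.45 (SE 0.12). The adjusted p-values were 0.285 by the common-prior fit and 0.00941 by the intensity-trend fit. The intensity-trend call was lost without knockdown replicate 2 (adjusted p = 0.153, difference 0.35). A dim probe set assigned to the same 14 genes read 17.1 and 18.1 in knockdown and 15.0 and 7.59 in control (0.31). The other 3 of the 5 such probe sets were below the filter and gave -0.29, -0.09 and 0.10, with no shared direction. At -0.29 both knockdown arrays lay below both control arrays. The one-gene H4 probe sets as a set did not show this rise, with 5 of 8 below 0, against 10980 of 19775 named genes. They were dim, at a mean intensity of 19.1 at most, so they give no clear direction.

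The names of H3-3A and H3-3B, the 2 genes of the replacement histone, stood on 8 shared probe sets, each with a pseudogene or a microRNA gene as the other name. They read the same 2 genes, so they do not count as separate genes. Differences were above 0 in 7 of the 8, against 6136 of the 12922 genes tested. Both knockdown arrays exceeded both control arrays in 5, against 22.7% of all genes tested. One of these read 949 and 876 in knockdown, against 745 and 775 in control, at 0.26 (SE 0.11), with adjusted p-values of 0.377 in the common-prior fit and 0.0380 in the intensity-trend fit. Another, much dimmer, read 85.2 and 72.9 in knockdown, against 53.4 and 37.5 in control, at 0.64 (SE 0.15, adjusted p = 0.285 and 0.0186). The 4 brightest were not all on the same side of 0. They read 2494 and 2549 in knockdown and 2498 and 2395 in control (0.04), then 2373 and 2397 in knockdown and 2181 and 2034 in control (0.18). The next read 2091 and 2078 in knockdown and 2054 and 1922 in control (0.07), and the last of them 1934 and 1791 in knockdown and 2104 and 2002 in control (-0.14). None of these 4 passed the common-prior or the intensity-trend fit as described, but the one at 0.18 was called by the intensity-trend fit with median centring (adjusted p = 0.0160, against 0.0715 without it).

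In the other direction, an _x_at probe set assigned to H3C4 and H2AC7 together read 14.7 and 11.5 in knockdown, against 30.4 and 28.5 in control. The difference was -0.64 (SE 0.11), with adjusted p-values of 0.273 in the common-prior fit and 0.0290 in the intensity-trend fit. A dimmer probe set assigned to 11 genes, H3C4 and H2AC7 among them, did not show this, at -0.03 with overlap. Nor did one assigned to 10 H3 genes, H3C4 among them, at 0.03 with overlap. Of the 4 intensity-trend calls, 3 were lost in 2 or more of the 4 fits that leave out 1 array: the brighter H3-3A and H3-3B probe set was called only without knockdown replicate 2, the dimmer one only without knockdown replicate 2 or control replicate 1, and that of H3C4 and H2AC7 only without knockdown replicate 1. Over those 4 fits the differences kept their sign, at 0.20 to 0.31 for the brighter H3-3A and H3-3B probe set, 0.45 to 0.83 for the dimmer one and -0.72 to -0.56 for H3C4 and H2AC7. Probe sets of H2AC18 and H2AC19 read 51.6 and 50.3 in knockdown and 38.7 and 41.8 in control (0.25, adjusted p = 0.308 in the intensity-trend fit), and 70.2 and 74.1 in knockdown and 70.7 and 58.0 in control (0.14).

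**Figure D4:**
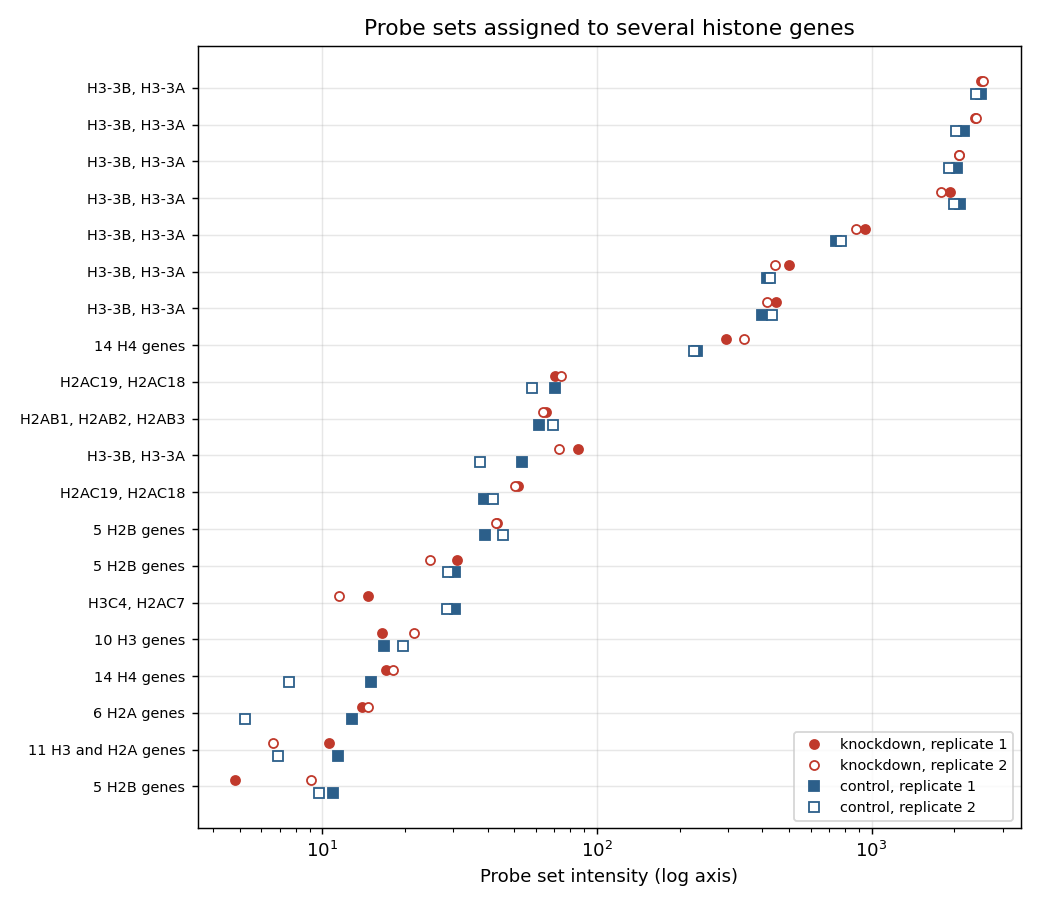
Intensity on a log axis of the 20 probe sets above the filter that are assigned to several genes, at least 1 of them a coding histone gene, ordered by mean. Red circles are knockdown arrays and blue squares control arrays, filled for replicate 1 and open for replicate 2; the brighter 14-gene H4 probe set lies at 295 and 344 in knockdown, to the right of its controls, and that of H3C4 and H2AC7 at 14.7 and 11.5, to the left of its controls.

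Factors that make histone mRNA were examined beside the genes themselves. Of 21 tested genes for the transcription and end processing of histone mRNA, 8 lay above 0 and 13 below, with a median of -0.12 against -0.01 over all genes tested. None passed the common-prior fit, 6 of 21 had an unadjusted p below 0.05 there, against 14.1% of all genes tested, and 1, CASP8AP2, passed the intensity-trend fit, against 2.99%. CASP8AP2 encodes FLASH, which joins histone locus bodies and the cleavage of histone pre-mRNA, and read 33.2 and 29.0 in knockdown, against 56.6 and 57.7 in control. Its difference was -0.64 (SE 0.10, adjusted p = 0.252 in the common-prior fit and 0.00893 in the intensity-trend fit), and a second probe set was below the filter. LSM10, a subunit of the U7 particle that directs this cleavage, read 96.5 and 103 in knockdown and 79.8 and 69.2 in control (0.36, adjusted p = 0.273). SLBP, the protein that binds the stem-loop, read 333 and 331 in knockdown and 361 and 364 in control (-0.12, adjusted p = 0.601).

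Chaperones and exchange factors of histones were balanced, with 13 of 25 above 0, 12 below and a median of 0.01. None passed the common-prior fit, 3 of 25 had an unadjusted p below 0.05 there, against 14.1% of all genes tested, and 1 passed the intensity-trend fit, against 2.99%. This was SRCAP, the motor of a complex that loads H2A.Z, at 6.92 and 8.12 in knockdown, against 17.1 and 25.7 in control (-0.66, adjusted p = 0.252 and 0.0413). Both knockdown values lay below the filter's intensity, so SRCAP was tested through its control values. Its other probe set above the filter did not show this, at 15.6 and 9.06 in knockdown and 12.7 and 12.1 in control. VPS72, which binds H2A.Z in the same complex, read 41.3 and 39.9 in knockdown and 26.6 and 23.6 in control (0.46, adjusted p = 0.252 and 0.0613). The variants outside the name rule, CENPA of centromeres and MACROH2A1, gave 0.04 and -0.01.

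Genes of S phase and DNA replication leaned to lower values in knockdown, with 25 of 32 below 0, 7 above and a median of -0.10, against 6786 of 12922 below 0 and a median of -0.01 over all genes tested. None passed the common-prior fit, and 4 of 32 had an unadjusted p below 0.05 there, against 14.1% of all genes tested. The groups did not overlap for 59.4%, against 47.3%, a share much like the 57.1% of the histone mRNA processing list and the 60% of the chaperones. In the intensity-trend fit 10 of 32 had an unadjusted p below 0.05, against 17.1%, with 8 of 21 for processing and 5 of 25 for chaperones. RFC4, a subunit of the clamp loader, was the 1 of 32 past the intensity-trend fit, against 2.99% of all genes tested, at 310 and 269 in knockdown, against 384 and 354 in control (-0.34, adjusted p = 0.0349, and 0.291 in the common-prior fit). E2F1, an activator of S phase genes, read 15.6 and 17.3 in knockdown and 24.1 and 24.9 in control (-0.32, adjusted p = 0.276), but 18.2 and 19.1 in knockdown and 12.4 and 27.9 in control at its other probe set. POLD1, the catalytic subunit of DNA polymerase delta, read 38.8 and 33.2 in knockdown and 47.5 and 50.6 in control (-0.33, adjusted p = 0.287). Whether the cells of the groups differed in their share of S phase was not tested.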

How the data were processed

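The authors deposited a linear intensity for each of 54613 probe sets on each of the 4 arrays. Biotinylated cRNA was made by the standard 1-cycle Affymetrix procedure, per the labels' protocols. For the step from scans to intensity, the method was not given in the sources used here, and 971 to 1080 values per array are exactly 1. The number of arrays limits the precision.

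Probe sets were named through the platform annotation, in which 41091 had 1 gene, 1801 several and 11721 none, and 41037 matched the annotation GCF_000001405.40 by gene number. Arrays were left as deposited, since their log2 medians spanned 0.07. Values were turned into log2(intensity + 16), the brightest probe set stood for a gene, and genes with a mean below 4.60 (an intensity of 8.26) were not tested. The fits used lmFit and eBayes of limma 3.58.1 in R 4.3.3, two-sided, with Benjamini-Hochberg adjustment over all genes tested. They were tested on simulated data.

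Named were all variants above the filter, the 8 brightest cluster genes, the 6 of largest moderated t in each direction, and from each pathway list those past a fit and the 2 of largest t. SLBP was named outside this rule. The members, lists and rules were chosen with earlier results of these data known. Alternatives were other variance priors, filters, normalizations, pseudocounts, probe set rules, a replicate block, and leaving out each array. Same-numbered replicates did not deviate together (r = -0.01 over genes, from 2 pairs).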

Additional observations from a re-analysis of the deposited data

How the results depend on the processing

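No histone gene with its own probe set was called under any of the alternatives run, the replicate block (0 calls) and the 7 further forms of the intensity-trend fit included. The count over all genes was 2 in the common-prior fit and became 387 (206 higher) in the intensity-trend fit, 33 with a filter at an intensity of 32, 1 with the mean over probe sets, 0 with a pseudocount of 1, 416 with a pseudocount of 64, and 1 to 6 with single arrays left out, 6 being the count without knockdown replicate 1 and 1 that without control replicate 2. With the replicate block it stayed at 2. Shared histone probe sets gave 0 calls in the common-prior fit, 4 in the intensity-trend fit, 5 with the replicate block there, 5 with median centring, 4 with quantile normalization, 3 in the common-prior fit with a pseudocount of 64, and 1 to 2 with single arrays left out of the intensity-trend fit. The call added by the block and by centring was an H3-3A and H3-3B probe set at 0.18 (adjusted p = 0.00847 with the block). The cause of these shifts was not tested. The replication-dependent median of -0.0313 became -0.0473 above the filter, 0.0259 with median centring, -0.00781 with quantile normalization, -0.0660 and -0.0129 with pseudocounts of 1 and 64, and -0.0422 to 0.00920 without single arrays. The variant median of -0.0575 became 0.0737 above the filter, 0.0706 at an intensity of 32, -0.0371 with the mean over probe sets, -0.000287 with median centring, -0.0207 with quantile normalization, -0.103 and -0.0167 with pseudocounts of 1 and 64, and -0.0474 to 0.0191 without single arrays. The class difference of 0.0262 became -0.121 above the filter, -0.0942 at an intensity of 32, and -0.0613 to 0.0447 without single arrays, so its direction is not settled. Of the named histone genes, 7 changed sign in at least 1 alternative, H2AX among them with the mean over its probe sets (-0.02).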
